A study of Mus musculus with 11 samples.

Results

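The potassium channel genes were taken as every gene whose Ensembl mouse symbol begins with Kcn, leaving out Kcnq1ot1 and 4 opposite-strand transcripts, which gave 94 members among 48709 gene IDs. By symbol they fall into 40 voltage-gated, 8 calcium-activated, 15 inward rectifier, 14 two-pore and 17 accessory genes. RNA was sequenced from primary hippocampal neurons of the mouse, cells dissociated from the hippocampus and cultured for 10 days at 20% oxygen. Control cells (6 libraries) stayed at 20% oxygen, and hypoxia cells (5 libraries) were moved to 1% oxygen for 4 h. Cells of both groups came from the same isolation, with no genetic change or drug in the labels. Whether the libraries of a group came from separate dishes is not given, so p-values measure the spread between these libraries, which may be technical.

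Potassium channels let potassium leave or enter cells along its gradient, and so set the resting potential and end the action potential. Voltage-gated channels open on depolarisation, calcium-activated channels (grouped here with the related sodium-activated and pH-activated Slo genes) couple spiking to an outward current, inward rectifiers and two-pore channels hold the membrane near rest, and accessory subunits change gating and trafficking. In hippocampal neurons these currents shape spike width, firing rate and dendritic excitability, and a fall in oxygen is known to alter the activity of several of them within minutes. The measurements here are of transcripts after hours.

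Library totals ran from 16619493 to 31917157 counts, and levels are given as CPM, the counts scaled to 1000000 per library. All 6 genes listed to check the exposure (Vegfa, Slc2a1, Egln3, Pdk1, Ankrd37 and Adm) were higher in hypoxia (median log2 fold change 1.28). The cultures held transcripts of excitatory neurons, interneurons and astrocytes, whose summed marker levels overlapped between the groups for interneurons (375 to 423 CPM in control and 377 to 415 in hypoxia) and for astrocytes (3067 to 3368 and 3086 to 3360 CPM). The 6 excitatory markers summed to 2772 to 3042 CPM in control and 2960 to 3120 in hypoxia, and of these Neurod6 was called, as higher (log2 fold change 0.13, adjusted p = 0.0165). Microglial markers were low, at 17.1 to 19.0 and 16.8 to 20.0 CPM in sum, and the endothelial genes Cldn5, Pecam1, Cdh5 and Tek each averaged under 1 CPM. Of 8 oligodendrocyte lineage markers Olig1 and Olig2 were lower, and the sum was 109 to 155 CPM in control and 92.7 to 123 in hypoxia. The 3 choroid plexus and ependyma markers summed to 41.8 to 112 CPM and 70.04 to 85.1 CPM, with Foxj1 lower. In such mixed cultures fewer cells of a type and less RNA per cell cannot be told apart.

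At least 10 raw counts in at least 5 libraries were found for 75 of the 94 members, and these were tested together with all other genes that met the same minimum (16319 in all) with the edgeR quasi-likelihood test. A call is an adjusted p under 0.05 after Benjamini-Hochberg adjustment over all of them. After low oxygen 6 members were higher (Kcne4, Kcnj2, Kcnj6, Kcnh1, Kcnk10 and Kcnma1) and 15 lower (among them Kcng4, Kcns3, Kcnv1, Kcnmb2, Kcnj12, Kcnc4, Kcnt1, Kcnmb4, Kcnk1, Kcnc2, Kcnip3, Kcnj3, Kcna2 and Kcnn3). The 21 calls were 28.0% of the tested members, against 23.0% of all genes tested. Higher calls were 8.0% of the members against 10.2% of all genes, and lower calls 20.0% against 12.8%. The median log2 fold change of the tested members was -0.05, beside -0.02 for all genes tested. In 12 of the 21 called members the level in the higher group exceeded that in the lower group by less than 25%. The members' share of calls was thus near the background, and most differences were small. The widest were increases in Kcne4 (3.74-fold) and Kcnj2 (2.35-fold) and decreases in Kcng4 (2.12-fold) and Kcns3 (1.81-fold). Of these, Kcne4, Kcng4 and Kcns3 had low counts, and Kcne4 and Kcng4 met the minimum through the group where they were high, as described below.

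**Figure D1:**
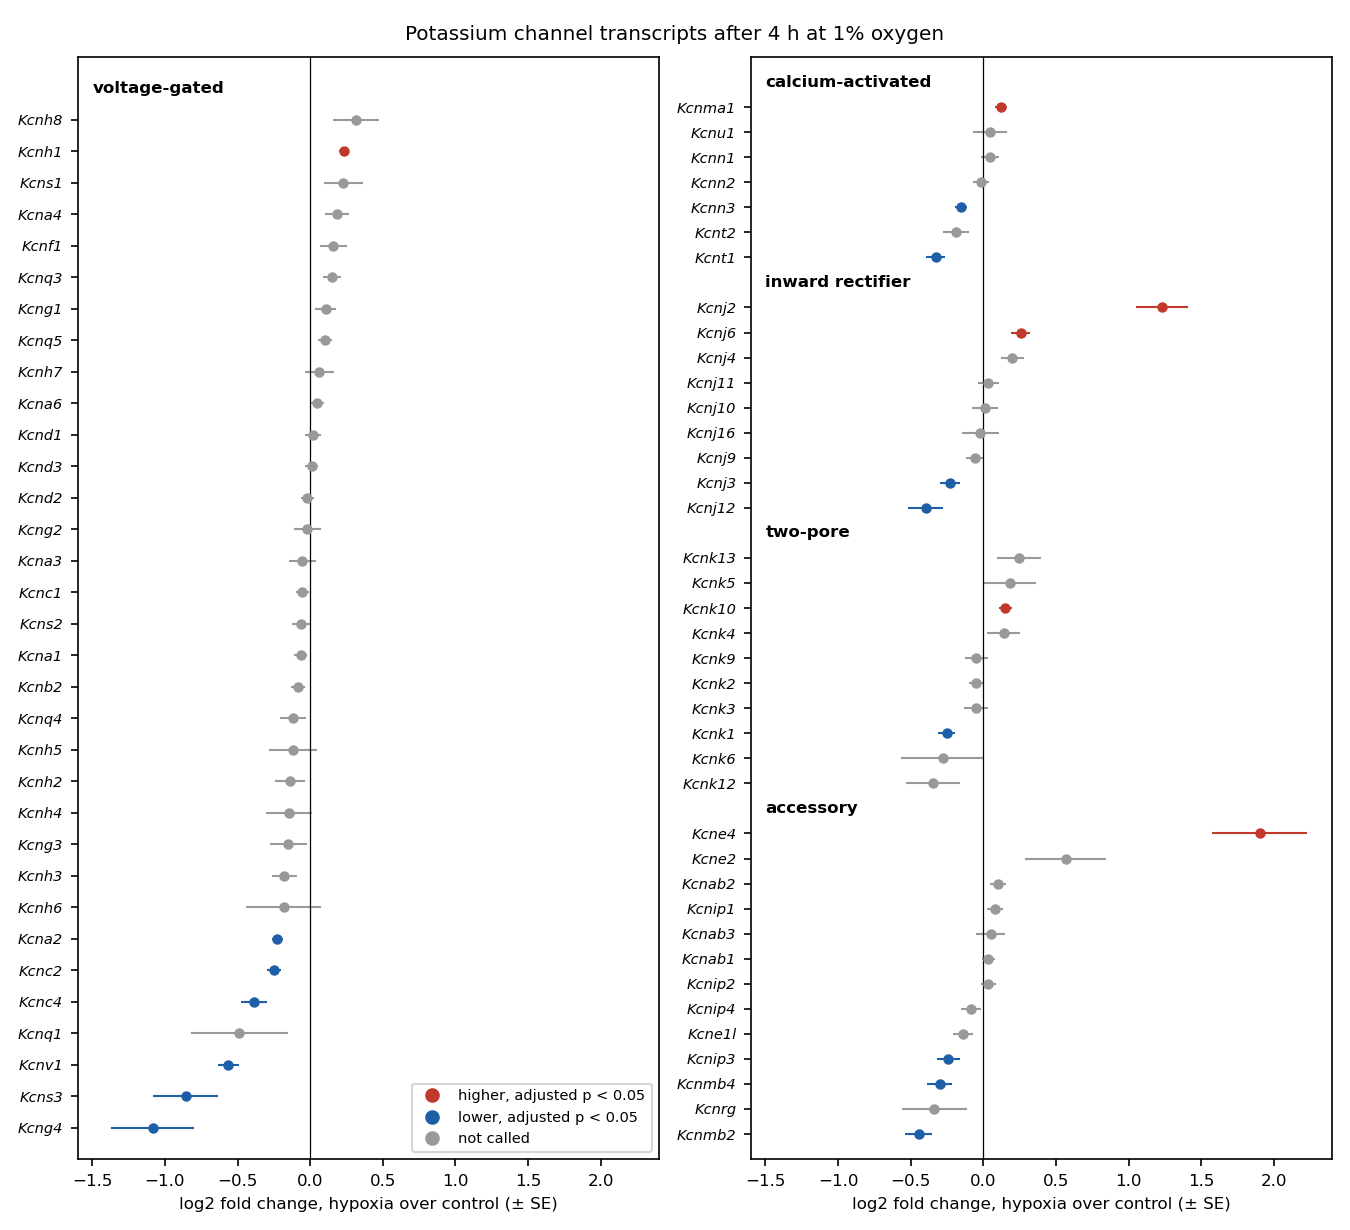
Log2 fold change of tested members (hypoxia over control, x axis), with bars of 1 SE, sorted within each subfamily. Red points were higher and blue points lower at an adjusted p under 0.05, grey points were not called, and the points farthest to the right are Kcne4 (1.90) and Kcnj2 (1.23).

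Libraries of a group differed unequally. The chi-square per degree of freedom between counts of control libraries was 13.3 to 26.6 for pairs with control 2, 8.56 to 14.0 for the other pairs with control 1, and 2.33 to 5.05 among the other controls. It was 8.36 to 9.98 for pairs with hypoxia 5 and 2.45 to 7.76 among the other hypoxia libraries. Without control 2, control 1 or hypoxia 5, the higher and lower members numbered 6 and 15, 7 and 17, and 8 and 14. By the Dixon gap criterion hypoxia 5 lay apart from the other hypoxia libraries in Kcne4, Kcnj12, Kcnc4 and Kcnc2. Of the other called members described here, hypoxia 5 was the lowest hypoxia library in Kcnj2, Kcnj6 and Kcnma1. It was the highest in Kcnk1, Kcnh1 and Kcnip3, and in none of these did the gap pass the criterion. Over all genes tested its deviations from its group mean correlated at 0.305 with those of control 5 and at 0.119 with those of control 6. With libraries 1 to 4 of each group alone, an alternative chosen after seeing the data, 7 members were higher and 14 lower, and 20 of the 21 calls were shared. The lost call was Kcng4 (adjusted p = 0.0766, by edgeR).

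The largest change in a pore-forming gene was an increase in Kcnj2 (ENSMUSG00000041695, chromosome 11, 111066164 to 111076821, in GRCm38 as for all gene positions here). Kcnj2 encodes Kir2.1, a strong inward rectifier that holds the membrane near the potassium equilibrium potential. Kcnj2 stood at 2.82 to 5.14 CPM in control (median 4.22) and at 10.9, 9.63, 11.4, 9.74 and 5.75 CPM in hypoxia 1 to 5. Every hypoxia library lay above every control library, although hypoxia 5 was close to the highest control, and controls 5 and 6 were the lowest of their group (2.90 and 2.82 CPM). Kcnj2 rose 2.35-fold (log2 fold change 1.23, SE 0.18, adjusted p = 0.000130), and the log2 value was 1.37 without hypoxia 5. With libraries 1 to 4 of each group it was 1.17 (adjusted p = 2.45e-06). Of the other strong inward rectifiers, Kcnj12 (Kir2.2) was lower and Kcnj4 (Kir2.3) was not called. Kcnj4 was at 20.2 ± 2.67 CPM (SD, n = 6) in control libraries and 23.3 ± 1.68 CPM (SD, n = 5) under low oxygen (log2 fold change 0.20, SE 0.08, adjusted p = 0.0843); errors after ± are SDs over these libraries throughout.

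Kcne4 (ENSMUSG00000047330, chromosome 1, 78816758 to 78820028) had the largest fold change of all members. It encodes a single-pass accessory subunit that inhibits several voltage-gated channels. Its level was low, at 0.251 to 0.665 CPM in control (median 0.354, 6 to 18 raw counts) and 1.19, 1.28, 0.846, 1.13 and 2.76 CPM in hypoxia (21 to 88 raw counts). All hypoxia libraries were above all controls, and hypoxia 5 was the highest of them. Kcne4 rose 3.74-fold (log2 fold change 1.90, SE 0.33, adjusted p = 0.000605), and the log2 value was 1.49 without hypoxia 5 (adjusted p = 0.000529). Only 3 control libraries reached 10 counts, so Kcne4 met the minimum through its hypoxia libraries. In hypoxia 5 the 4 fibroblast markers (Col1a1, Col1a2, Dcn and Lum) summed to 169 CPM, against 90.9 to 110 CPM in the other hypoxia libraries and 103 to 131 CPM in control, and none of the 4 was called. The 7 endothelial and mural markers summed to 18.5 to 23.4 CPM in control and 23.5 to 34.3 CPM in hypoxia. One of them, the mural and fibroblast receptor gene Pdgfrb, was higher (14.5 ± 1.34 and 21.4 ± 3.41 CPM, log2 fold change 0.56), and no other of the 7 was called. Of the others tested, Cdh5, Acta2 and Rgs5 had log2 fold changes of -0.74, -0.43 and -0.16 and Pecam1 of 0.27, and the median of those tested was -0.16. Their part in the Kcne4 and Kcnj2 results was not tested.

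**Figure D2:**
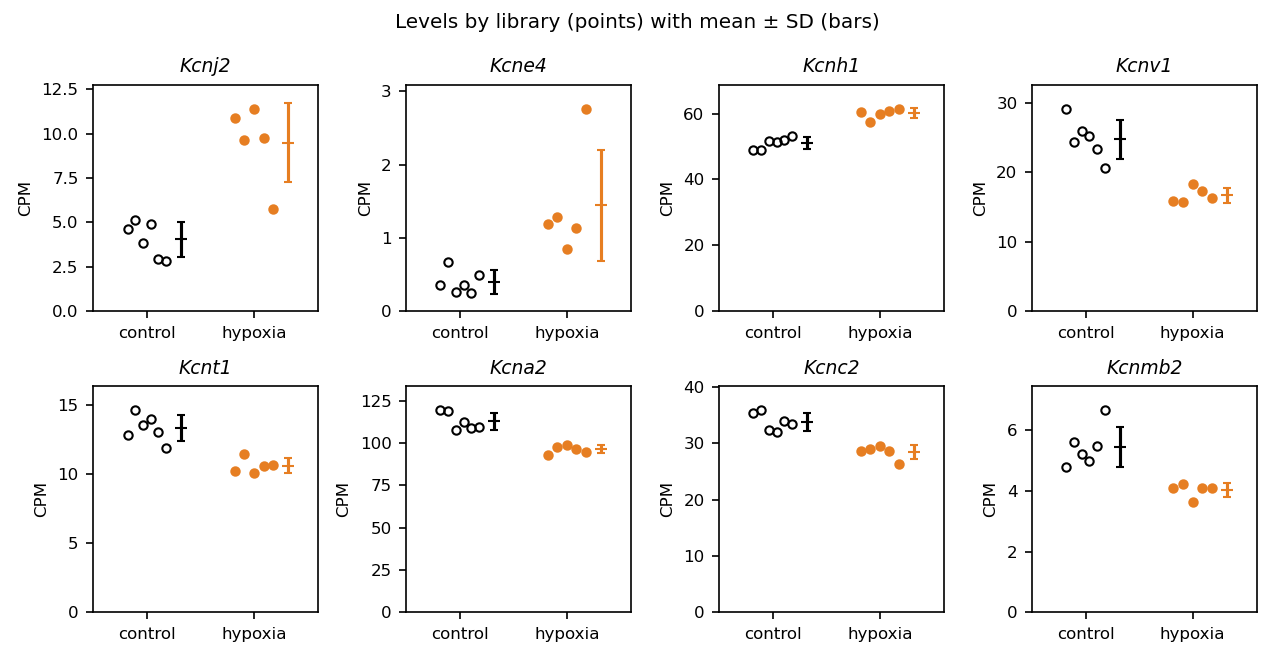
CPM in each library (points, 6 control and 5 hypoxia) with the group mean and SD beside them, for 3 members that were higher and 5 that were lower. In each panel the groups do not overlap. By the Dixon gap criterion hypoxia 5 lies apart for Kcne4 (2.76 CPM) and Kcnc2 (26.4 CPM), and hypoxia 3 for Kcnmb2 (3.63 CPM). Hypoxia 5 is the lowest hypoxia library for Kcnj2 (5.75 CPM), where the gap did not pass the criterion.

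The promoters of these genes were read from RefSeq (GRCm38.p6) to show the sequence before RefSeq starts of members that changed. Windows of 250 bases before a start were found for 69 of the 94 members, among them all 6 higher members (8 windows) and 12 of the 15 lower members (18 windows). The windows were searched on both strands for ACGTG and GCGTG, the core letters of the hypoxia response element that HIF binds, and for the cyclic AMP response element TGACGTCA. The windows given here are those of Kcne4 and Kcnj2, as the 2 largest increases, and of Kcnmb2 and Kcns3, 2 lower members that also hold a match. RefSeq starts differ from those of the GENCODE gene models: the Kcnj2 window ends at the base before the GENCODE start, the Kcne4 and Kcnmb2 windows run past it into the gene, and the Kcns3 window lies wholly inside the gene. The marked matches of Kcne4, Kcnmb2 and Kcns3 thus lie inside their GENCODE genes, and that of Kcnj2 lies before its GENCODE start. Kcns3 has another RefSeq window, nearer its GENCODE start, with no match. Each runs 5′ to 3′ on the gene's strand with the matches in capitals. Kcne4 lies on the plus strand at chr1:78816661-78816910, Kcnj2 on the plus strand at chr11:111065914-111066163, Kcnmb2 on the plus strand at chr3:31902453-31902702 and Kcns3 on the minus strand at chr12:11150374-11150623.
Kcne4: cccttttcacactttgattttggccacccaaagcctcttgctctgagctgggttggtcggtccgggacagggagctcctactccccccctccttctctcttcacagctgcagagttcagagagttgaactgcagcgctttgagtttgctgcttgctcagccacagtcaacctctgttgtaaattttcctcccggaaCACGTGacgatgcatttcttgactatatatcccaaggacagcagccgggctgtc
Kcnj2: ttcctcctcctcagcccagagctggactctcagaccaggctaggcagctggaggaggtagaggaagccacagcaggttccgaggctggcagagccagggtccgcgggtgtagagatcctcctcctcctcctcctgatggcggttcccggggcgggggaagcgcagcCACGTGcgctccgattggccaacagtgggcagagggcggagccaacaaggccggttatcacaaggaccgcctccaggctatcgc
Kcnmb2: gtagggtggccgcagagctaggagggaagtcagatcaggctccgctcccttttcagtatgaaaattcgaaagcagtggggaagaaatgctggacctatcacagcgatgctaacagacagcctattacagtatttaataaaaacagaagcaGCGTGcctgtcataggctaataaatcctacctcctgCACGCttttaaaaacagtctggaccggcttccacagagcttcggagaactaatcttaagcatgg
Kcns3: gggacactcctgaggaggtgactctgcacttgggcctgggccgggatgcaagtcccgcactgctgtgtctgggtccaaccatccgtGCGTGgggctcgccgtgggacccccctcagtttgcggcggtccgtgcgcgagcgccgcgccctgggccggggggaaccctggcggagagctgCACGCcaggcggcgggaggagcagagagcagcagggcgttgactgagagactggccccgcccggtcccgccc

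Both the Kcne4 and the Kcnj2 window hold CACGTG, a palindrome that contains ACGTG on each strand and is also the letters of an E-box. This palindrome was in 6.02% of all 32851 RefSeq windows and in 6 of the 94 member windows (6.38%). Of the member windows that held it, 2 were of higher members, 3 of members not called and 1 of a member not tested. At least one of ACGTG and GCGTG was in 4 of 8 windows of higher members and 3 of 18 windows of lower members. It was in 19 of 51 windows of members not called, 8 of 17 windows of members not tested, and 38.6% of all windows. Windows of a gene could overlap and were each counted, as for Kcnc2, whose windows held no match. The lower members with a match were Kcnj3, Kcnmb2 and Kcns3. TGACGTCA was in none of the 94 member windows and in 1.55% of all windows. The median GC content of the 250 bases was 64.0% for higher, 58.6% for lower and 60.8% for uncalled members, and 52.4% for all windows. A match is a description of the letters and not a binding site.

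Among voltage-gated genes 36 of 40 were tested, and 1 was higher and 7 lower. These calls were 22.2% of those tested, near the 23.0% of all genes, and the median log2 value was -0.06. The lower genes described here were in the Kv1 and Kv3 families and among the electrically silent subunits. Kcnb2 (Kv2.2), a delayed rectifier, was at 33.6 ± 1.74 and 31.6 ± 1.68 CPM and was not called (log2 fold change -0.09, SE 0.05, adjusted p = 0.225).

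Silent subunits do not form channels alone and join other voltage-gated subunits to change their gating. Of 9 tested, 3 were lower (33.3%, against 12.8% of all genes). Kcnv1 (Kv8.1, chromosome 15, 45106284 to 45114920) stood at 20.6 to 29.1 CPM in control (median 24.7) and 15.8, 15.7, 18.3, 17.3 and 16.3 CPM in hypoxia, with every hypoxia library below every control. This was a log2 fold change of -0.56 (SE 0.07, adjusted p = 5.89e-05). Kcns3 (Kv9.3, chromosome 12, 11090202 to 11151056) fell from 0.793 to 1.80 CPM (median 1.16) to 0.705, 0.642, 0.765, 0.445 and 0.628 CPM, again without overlap (log2 fold change -0.86, SE 0.22, adjusted p = 0.0104). Kcns3 counts were low, at 25 to 40 raw counts in control and 11 to 20 in hypoxia. Kcng4 (Kv6.4) had 10 to 23 raw counts in control and 4 to 10 in hypoxia, with overlapping CPM values and a log2 fold change of -1.08 (adjusted p = 0.0119). It met the minimum through its control libraries, since 1 hypoxia library reached 10 counts. The other silent subunits, Kcnf1, Kcng1, Kcng2, Kcng3, Kcns1 and Kcns2, had log2 fold changes from -0.15 to 0.23 and were not called.

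In the Kv1 family Kcna2 (Kv1.2, chromosome 3, 107101146 to 107115005), an axonal channel of low activation threshold, stood at 108 to 119 CPM in control (median 111) and 93.0, 97.8, 98.9, 96.7 and 94.9 CPM in hypoxia. The groups did not overlap, and the log2 fold change was -0.23 (SE 0.04, adjusted p = 0.000412). Kcna1, Kcna3, Kcna4 and Kcna6 were not called, with log2 fold changes of -0.07, -0.05, 0.19 and 0.05. In the Kv3 family, whose fast channels allow high firing rates, Kcnc2 and Kcnc4 were lower. Kcnc2 (Kv3.2, chromosome 10, 112271121 to 112467024) fell from 31.9 to 35.8 CPM (median 33.6) to 28.6, 29.0, 29.5, 28.7 and 26.4 CPM, with no overlap (log2 fold change -0.25, SE 0.05, adjusted p = 0.000953). Kcnc4 (Kv3.4) was more variable, at 24.9 to 36.0 CPM in control (median 32.5) and 23.3, 23.8, 22.4, 22.8 and 28.4 CPM in hypoxia. Hypoxia 5 lay within the control range, where controls 5 and 6 were high (36.0 and 35.0 CPM), and the log2 fold change was -0.39 (SE 0.09, adjusted p = 0.00455). Kcnc1 was not called (log2 fold change -0.05, adjusted p = 0.421).

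Of 7 interneuron markers, cells many of which use Kv3.2, Dlx1 was lower (log2 fold change -0.28) and Lhx6 higher (0.14). The other 5 were not called, with log2 fold changes of 0.03 in Gad1, -0.09 in Gad2, -0.08 in Slc32a1, -0.11 in Sst and -0.22 in Dlx2, and the median of the 7 was -0.09. The part of interneuron number in the Kcnc2 result was not tested.

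The increase among voltage-gated genes was in Kcnh1 (EAG1, Kv10.1, chromosome 1, 192190774 to 192510159), a brain channel of the ether-a-go-go family. Kcnh1 stood at 48.9 to 53.2 CPM in control (median 51.6) and 60.6, 57.5, 59.9, 60.8 and 61.5 CPM in hypoxia. The groups were tight and separate, with a log2 fold change of 0.23 (SE 0.04, adjusted p = 0.000238). The other 7 ether-a-go-go family genes were not called, and their log2 fold changes ran from -0.18 in Kcnh3 and Kcnh6 to 0.32 in Kcnh8.

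Kv7 subunits form the M current, a slow brake on repeated firing. Kcnq3 (Kv7.3) was at 160 to 202 CPM (median 175) and 181, 205, 228, 200 and 175 CPM. Its log2 fold change of 0.15 (SE 0.07) was not called (adjusted p = 0.113) but passed without control 1 (0.0332) or hypoxia 5 (0.0421) by edgeR. Kcnq5 (Kv7.5) was at 221 to 260 CPM (median 237) and 240, 252, 283, 266 and 238 CPM (log2 fold change 0.10, adjusted p = 0.161). The Kv4 genes, which carry the dendritic A current, were not called: Kcnd1, Kcnd2 and Kcnd3 had log2 fold changes of 0.02, -0.02 and 0.01 with SEs of 0.06, 0.04 and 0.04.

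**Figure D3:**
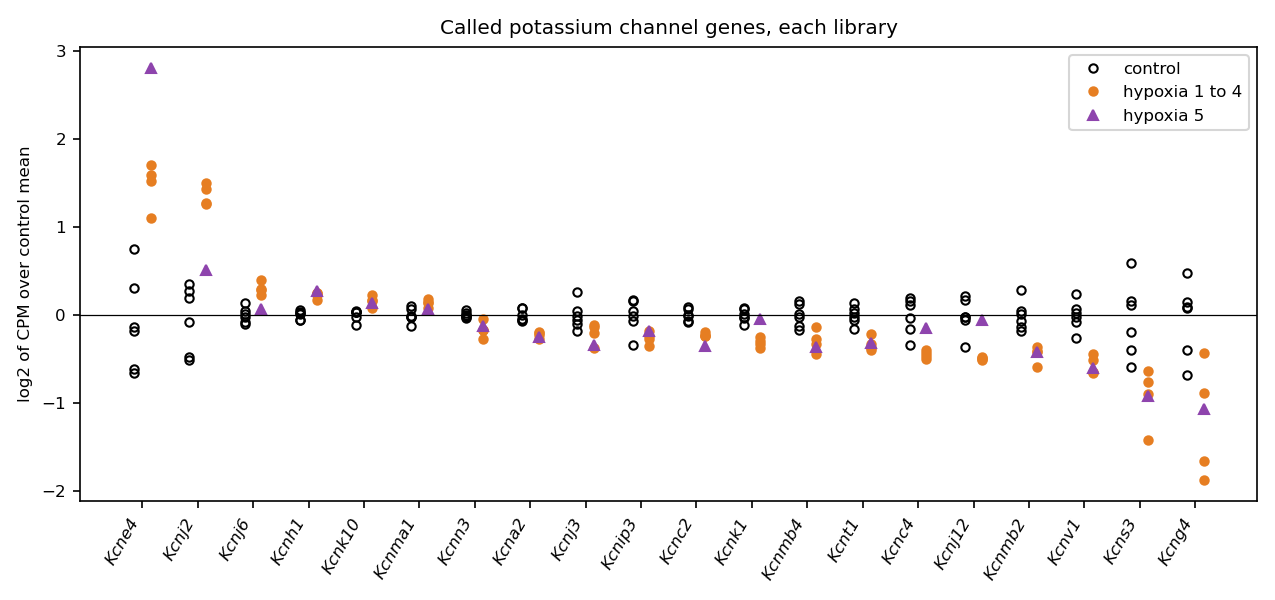
Log2 of the CPM in each library over the control mean of that gene, for called members in order of fold change. Open circles are controls, filled circles hypoxia 1 to 4, and triangles hypoxia 5. Hypoxia 5 is the highest hypoxia library in Kcne4, Kcnh1, Kcnk1, Kcnip3, Kcnc4 and Kcnj12. It is the lowest in Kcnj2, Kcnj6, Kcnma1 and Kcnc2.

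Of the 8 calcium-activated and Slo genes, 7 were tested, with 1 higher and 2 lower (42.9% called, against 23.0% of all genes). Kcnt1 (Slack, chromosome 2, 25863734 to 25918273), a sodium-activated channel that follows sodium entry during firing, stood at 11.9 to 14.6 CPM in control (median 13.3) and 10.2, 11.4, 10.1, 10.6 and 10.6 CPM in hypoxia. All hypoxia values were below all controls (log2 fold change -0.33, SE 0.06, adjusted p = 0.00152). Its relative Kcnt2 was not called (log2 fold change -0.19, SE 0.09, adjusted p = 0.143). Kcnn3 (SK3, chromosome 3, 89520164 to 89675132), one of the channels of the afterhyperpolarisation, fell from 51.3 to 54.6 CPM (median 52.3) to 43.6, 50.9, 46.6, 46.6 and 48.2 CPM, without overlap and by 10.2% on the linear scale (adjusted p = 0.0119). Kcnn2 (SK2), the hippocampal pyramidal form, was at 23.7 to 29.1 CPM (median 26.7) and 26.2, 27.1, 26.1, 25.8 and 24.8 CPM, which overlapped (log2 fold change -0.02, SE 0.06).

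Kcnma1 encodes the pore of the large-conductance BK channel, which opens with both voltage and calcium. It was at 116 to 136 CPM in control (median 125) and 134, 140, 141, 144 and 132 CPM in hypoxia, and hypoxia 1 and 5 lay below the highest control. The log2 fold change was 0.12 (SE 0.04, adjusted p = 0.0443). This call was lost when any one of 7 libraries was left out. Its adjusted p rose to 0.0509, 0.0872, 0.101 and 0.0605 without control 1, 3, 4 or 5 and to 0.0928, 0.0980 and 0.115 without hypoxia 2, 3 or 4, by edgeR. With upper-quartile factors it was 0.0506. Both tested BK beta subunits were lower. Kcnmb2 (chromosome 3, 31902507 to 32200180) fell from 4.79 to 6.66 CPM (median 5.35) to 4.10, 4.23, 3.63, 4.08 and 4.08 CPM, with no overlap (log2 fold change -0.44, SE 0.09, adjusted p = 0.00271). Kcnmb4, the neuronal beta subunit, was at 5.47 to 6.89 CPM (median 6.14) and 4.54, 5.63, 4.92, 5.09 and 4.77 CPM, with hypoxia 2 inside the control range (log2 fold change -0.30, SE 0.09, adjusted p = 0.0183). The annotation places opposite-strand genes over 31.5% of the Kcnmb4 exon bases, and the library kit does not mark strand. One of them, Kcnmb4os2, was not called (log2 fold change -0.06, adjusted p = 0.827).

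Inward rectifiers were tested for 9 of 15 genes, with 2 higher and 2 lower (44.4% called, against 23.0% of all genes). Beside Kcnj2, the higher gene was Kcnj6 (GIRK2, chromosome 16, 94748636 to 94997701), a pore subunit of the channels that G protein-coupled receptors open. Kcnj6 was at 15.3 to 18.1 CPM in control (median 16.4) and 21.6, 19.2, 20.2, 20.0 and 17.2 CPM in hypoxia. Hypoxia 5 alone lay within the control range (log2 fold change 0.26, SE 0.06, adjusted p = 0.00779). Its partner Kcnj3 (GIRK1) was lower, at 82.1 to 112 CPM (median 90.7) and 71.4, 80.7, 85.7, 84.4 and 73.1 CPM, and the groups overlapped (log2 fold change -0.23, SE 0.07, adjusted p = 0.0242). The Kcnj3 call was lost without control 4, hypoxia 1 or hypoxia 5 (adjusted p = 0.0507, 0.0675 and 0.0534 by edgeR). The noncoding gene Gm26794 overlaps 31.1% of its exon bases and was not called (log2 fold change -0.31, adjusted p = 0.0572). Kcnj9 (GIRK3) was at 17.4 ± 0.866 and 16.8 ± 1.28 CPM (adjusted p = 0.541).

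Kcnj12 (Kir2.2) was lower, at 2.996 to 4.48 CPM in control (median 3.78) and 2.69, 2.76, 2.74, 2.71 and 3.71 CPM in hypoxia. Hypoxia 1 to 4 were below every control and hypoxia 5 was not, as in Kcnc4 and Kcnk1. The log2 fold change was -0.40 (SE 0.12, adjusted p = 0.0229). The call was lost without control 5 or 6 (adjusted p = 0.0565 and 0.0518) and without hypoxia 1, 2, 3 or 4 (0.0537, 0.0605, 0.0578 and 0.0581), by edgeR. Kcnj11 (Kir6.2), the pore of ATP-sensitive channels that open when cellular ATP falls, was at 10.7 to 13.3 CPM (median 12.7) and 11.99, 12.1, 11.5, 13.4 and 14.2 CPM (log2 fold change 0.03, SE 0.07). Kcnj8, the other ATP-sensitive pore, which is found in mural cells, had 1 count over all controls and 4 over all hypoxia libraries.

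Kcnj10 (Kir4.1), the astrocyte channel that clears extracellular potassium, was at 69.1 to 102 CPM in control (median 88.7) and 89.9, 91.2, 103, 88.5 and 74.2 CPM in hypoxia. The groups overlapped throughout (log2 fold change 0.01, SE 0.09, adjusted p = 0.959). Kcnj16 (Kir5.1), its glial partner, had a log2 fold change of -0.02 (SE 0.13). Of the 8 astrocyte markers only Aqp4 was called, and it was lower (log2 fold change -0.20, adjusted p = 0.0282).

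Among two-pore genes, which carry leak current, 10 of 14 were tested, with 1 higher and 1 lower (20.0% called, against 23.0% of all genes). Kcnk1 (TWIK1, chromosome 8, 125995170 to 126030685) fell from 41.5 to 47.3 CPM (median 44.5) to 35.7, 37.5, 34.4, 36.5 and 43.3 CPM. Hypoxia 1 to 4 were below every control and hypoxia 5 was within the control range (log2 fold change -0.25, SE 0.06, adjusted p = 0.00392). Kcnk10 (TREK2, chromosome 12, 98429437 to 98578310), a stretch- and lipid-sensitive leak channel, rose from 29.3 to 32.7 CPM (median 32.4) to 37.2, 35.5, 35.6, 33.5 and 35.0 CPM, without overlap (log2 fold change 0.15, SE 0.04, adjusted p = 0.0161). Its relatives were not called: Kcnk2 (TREK1) was at 24.7 to 28.5 CPM (median 26.9) and 23.8, 27.7, 26.1, 25.7 and 26.3 CPM (log2 fold change -0.05, SE 0.05), and Kcnk4 (TRAAK) had a log2 fold change of 0.14 (SE 0.11). The acid-sensitive channels Kcnk3 (TASK1) and Kcnk9 (TASK3) are known for closing when oxygen falls in chemoreceptor cells. Kcnk3 was at 4.91 to 6.14 CPM (median 5.36) and 4.94, 4.98, 5.48, 4.77 and 5.90 CPM. Kcnk9 was at 5.28 to 6.90 CPM (median 5.84) and 6.13, 5.25, 5.76, 5.74 and 5.68 CPM. The groups overlapped for both, at log2 fold changes of -0.05 (SE 0.08 each, adjusted p = 0.712 and 0.732).

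Accessory genes were tested for 13 of 17, with Kcne4 higher and Kcnmb2, Kcnmb4 and Kcnip3 lower (30.8% called, against 23.0% of all genes). Kcnip3 encodes KChIP3, also called DREAM or calsenilin, a calcium-binding protein that joins Kv4 channels and also acts as a transcriptional repressor. It was at 18.7 to 26.5 CPM in control (median 23.8) and 19.5, 20.1, 20.8, 18.6 and 20.9 CPM in hypoxia. Control 6 was as low as the hypoxia libraries, and the log2 fold change was -0.24 (SE 0.08, adjusted p = 0.0329). The call was lost without control 2, 4 or 5 (adjusted p = 0.0921, 0.0806 and 0.0568) and without hypoxia 1, 2 or 4 (0.0665, 0.0622 and 0.0818), by edgeR. The other KChIP genes were not called, with log2 fold changes of 0.08 in Kcnip1, 0.03 in Kcnip2 and -0.08 in Kcnip4. Kcne2, which also met the minimum through its hypoxia libraries, was not called (log2 fold change 0.57, adjusted p = 0.156). Kcnip2, the most abundant KChIP gene per exon length, was at 60.4 to 72.6 CPM (median 70.3) and 74.4, 70.5, 72.2, 63.3 and 72.2 CPM. Kcnab2, the main beta subunit of Kv1 channels in brain, was at 149 to 190 CPM (median 175) and 194, 179, 187, 179 and 183 CPM (log2 fold change 0.10, SE 0.06, adjusted p = 0.204).

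Partners of these channels whose symbols do not begin with Kcn were taken from a list of 25 genes. Of 22 tested, 4 were higher and 2 lower, 27.3% against 23.0% of all genes, and the median log2 value was 0.00. Dpp6, the Kv4 partner that speeds the A current, rose from 239 ± 7.46 to 269 ± 5.74 CPM (log2 fold change 0.17, adjusted p = 0.00129). Cntnap2 (Caspr2), which clusters Kv1 channels beside the nodes of axons, rose from 196 ± 5.82 to 217 ± 7.75 CPM (adjusted p = 0.00449), and the anchoring protein gene Akap9 from 196 ± 8.93 to 225 ± 12.1 CPM (adjusted p = 0.00322). Lgi1, a secreted protein of Kv1 complexes, was higher at 87.5 ± 3.43 against 78.5 ± 5.92 CPM (adjusted p = 0.0304). This call was lost without any one of control 3, 5 and 6 or hypoxia 2, 3 and 4 (adjusted p of up to 0.0823, by edgeR). It was also lost with libraries 1 to 4 of each group (0.0896, by edgeR). Lrrc55, a BK gamma subunit, fell from 27.0 ± 1.83 to 21.8 ± 0.909 CPM (log2 fold change -0.30, adjusted p = 0.000714). Cntnap1 was lower at 40.8 ± 4.38 against 47.3 ± 2.78 CPM (adjusted p = 0.0212), and was not called without control 5 (0.0520) or hypoxia 4 (0.0560). Among BK subunit genes outside the pore, Kcnmb2, Kcnmb4 and Lrrc55 were thus lower and Lrrc26 was not called (log2 fold change -0.28, SE 0.17). Kcnmb1, Kcnmb3, Lrrc38 and Lrrc52 did not reach the minimum and were not tested.

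Levels between genes were compared as CPM per kilobase of exon, with exon lengths from GENCODE M21. Of the genes described here the highest were Kcnq5 (31.0 ± 1.81 in control and 33.3 ± 2.44 in hypoxia) and Kcnab2 (30.8 ± 2.90 and 33.0 ± 1.15), which overlapped within their SDs. They were followed by Kcnd2, Kcnip2 and Kcnk1, with means over all libraries of 20.0, 20.0 and 18.5 CPM per kilobase, and by Kcnj3, Kcnj10 and Kcnd3 at 16.6, 16.5 and 15.8. On this scale Kcnj2 and Kcne4 ranked 56th and 66th of the 94. Kcnj2 was at 0.741 ± 0.185 in control and 1.74 ± 0.408 in hypoxia, and Kcne4 at 0.149 ± 0.0595 and 0.543 ± 0.285 CPM per kilobase.

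Summed per kilobase over all 94 members, the transcripts stood at 435 to 457 in control and 429 to 453 in hypoxia. Voltage-gated genes made up 54.9 to 56.4% of this sum in control and 55.4 to 56.5% in hypoxia, and accessory genes 17.5 to 18.7% and 17.96 to 19.1%. Inward rectifiers made up 11.9 to 13.6% and 12.2 to 13.6%, and calcium-activated genes 5.43 to 5.90% and 5.45 to 5.90%. The two-pore share was 7.22 to 8.12% in control and 6.47 to 7.82% in hypoxia, with Kcnk1 the largest part of it. In every subfamily the ranges of the groups overlapped.

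**Figure D4:**
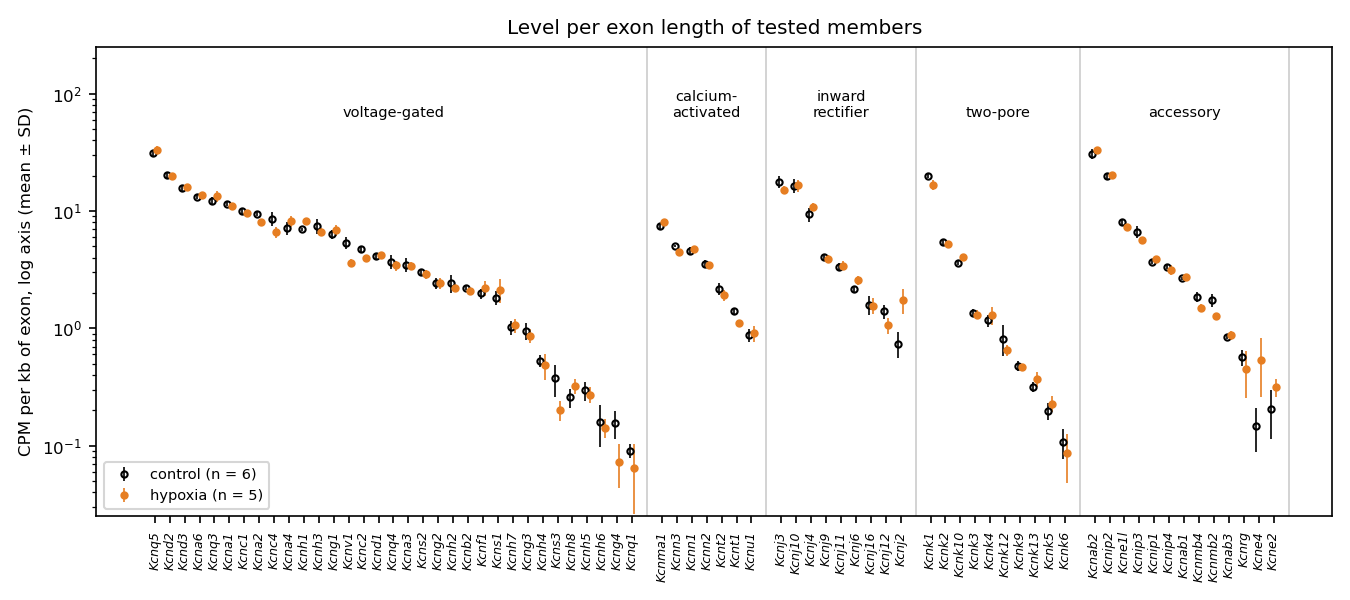
CPM per kilobase of exon (log axis) for tested members, grouped by subfamily and sorted by level, as mean and SD of the control (open) and hypoxia (filled) libraries. Kcnq5 and Kcnab2 are highest of those drawn at 30.8 to 33.3, and the group means are close for most genes, with Kcnj2 and Kcne4 the widest apart upward.

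The 19 members that were not tested had at most 14 counts in any library. They were Kcna5, Kcna7, Kcna10, Kcnv2, Kcnn4, Kcnj1, Kcnj5, Kcnj8, Kcnj13, Kcnj14, Kcnj15, Kcnk7, Kcnk15, Kcnk16, Kcnk18, Kcne1, Kcne3, Kcnmb1 and Kcnmb3. Kcnk16 was at 0 in all libraries, which allows up to 3 counts in each, or 0.181 CPM in the shallowest library and 0.0940 CPM in the deepest. Among these were Kcnj8, Kcnn4 and Kcnj13, which mark mural cells, microglia and choroid plexus. Kcnk13, a leak channel gene also used in microglia, was by contrast detected in every library, with 19 to 34 raw counts among controls and 21 to 45 under low oxygen. It was tested and not called (log2 fold change 0.24, SE 0.15, adjusted p = 0.273).

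Of the 12 members whose libraries did not overlap (16.0% of those tested, against 14.0% of all genes), 4 were above control (5.33% against 6.78%) and 8 below (10.7% against 7.25%). The authors' deposited table of genes that differed lists 7 members as higher and 15 as lower. All 21 members called here are in it in the same direction, and the other one is Kcnj4, at a log2 fold change of 0.25 and an adjusted p of 0.00658 in the authors' deposited table.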

How the data were processed

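RNA of 11 libraries (6 control and 5 hypoxia) was counted per Ensembl gene ID. The authors deposited whole-number read counts, not normalized. Build mm10, the aligner STAR 2.5.2b, featureCounts from Subread 1.5.1, DESeq2 and FastQC 0.11.5 are named, per the submitters' processing notes. For the annotation release, strand setting and multi-mapped reads, the handling was not given in the sources used here. Tables of the authors' comparison, also deposited, hold log2 fold changes with adjusted p-values. Each per-library signal deposited there is the count over 1 size factor per library and was not used.

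Symbols were matched for 48349 of the 48709 IDs. Genes with at least 10 counts in at least 5 libraries were tested with edgeR 4.0.16 in R 4.3.3 (TMM factors, quasi-likelihood F test, 2-sided, no covariate), with Benjamini-Hochberg adjustment over all 16319 genes, which held 99.9% of counts. The SE is the log2 fold change over the square root of F. CPM uses TMM-scaled library sizes. Exon lengths and overlaps are from GENCODE M21 (GRCm38, the assembly of mm10), which may not be the release used for counting. The fit was also run on counts simulated from its own fitted dispersions. Those counts do not carry the unequal spread between libraries described above, so they cannot show its effect on the calls. Replicates of a group differed by more than sampling noise (chi-square per degree of freedom of at least 2.33).

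Values in every library are given for up to 6 called members per direction and subfamily by smallest p, the 2 with the highest level per length in each, and 12 set by name; other members named were chosen after their values were seen. Members and lists were chosen with earlier results of these data known. Alternatives were other normalizations, filters, DESeq2, limma-voom, robust dispersions, a replicate block and leaving out libraries. Some members are counted but not reported here by name, and the figures leave them out.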

Additional observations from a re-analysis of the deposited data

Results flagged for a closer look

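In 6 of 64 groups of libraries examined (32 genes, control and hypoxia), one library lay apart from the others by the Dixon gap criterion. Chance flags about 1 group in 20. Hypoxia 5 was the library in 4 of the 6: Kcne4 was at 2.76 CPM there against 0.846 to 1.28 in the other hypoxia libraries, Kcnj12 at 3.71 against 2.69 to 2.76, Kcnc4 at 28.4 against 22.4 to 23.8, and Kcnc2 at 26.4 against 28.6 to 29.5. Kcnmb2 was at 3.63 CPM in hypoxia 3 against 4.08 to 4.23 in the others. Kcnip2 was at 60.4 CPM in control 6 against 69.0 to 72.6 in the other controls.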

How the results depend on the processing

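Over 21 alternatives the number of higher members was 5 to 8 (6 as reported), that of lower members 12 to 17 (15 as reported), and that of called partners 4 to 7 (6 as reported). No called member changed direction. Of the 21 called members, 14 were called under every alternative that tested them. A minimum of 50 counts in 5 libraries left Kcne4, Kcng4 and Kcns3 untested. DESeq2 called 7 higher and 15 lower members, adding Kcnj4. Leaving out 1 library at a time gave 5 to 8 higher and 12 to 17 lower members.

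The replicate numbers are shared by control and hypoxia 1 to 5, but the correlation of their deviations passed 0.1 in 2 of the 5 pairs (correlations of -0.10, 0.14, -0.05, -0.07 and 0.31) and 2 hypoxia libraries correlated best with the control of their own number, so the numbers were not taken to pair the libraries. With the replicate block, without control 6, 5 members were higher and 14 lower, and Kcnk10 (adjusted p = 0.0626), Kcnn3 (0.0549) and, among partners, Lgi1 (0.0742) were not called. Depth limits the least abundant members, such as Kcne4, Kcng4 and Kcns3, whose counts fell to under 25 in some libraries.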
